A study of Mus musculus with 60 samples.

Results

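Cytochrome P450 enzymes are hemoproteins outside the respiratory chain. Their genes were taken as all mouse symbols of the form Cyp followed by a digit, leaving out Cyp51 and pseudogenes, which gave 83 of the 22893 genes in 5 tables of RNA-sequencing values. Of these, 28 had a group mean of at least 4 on the deposited log2 scale in at least 1 table and are described here, and 16 reached it in every table. The other 55 stayed under it everywhere, among them the steroidogenic genes Cyp11a1, Cyp17a1 and Cyp19a1 and the bile acid gene Cyp7a1. The threshold cut through a continuous range: in experiment 2 the highest group mean was 3.998 for Cyp2c23, just below it, and 4.77 for Cyp2r1, just above, and in brown fat it was 3.99 for Cyp11a1 and 4.06 for Cyp2t4.

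The study holds 60 libraries, all of mouse cells or tissue. Experiment 1 followed wild-type cells of 3 kinds, the immortalized brown preadipocyte line B9 and primary preadipocytes of newborn pups from brown (pBAT) and white (pWAT) fat, through adipogenic differentiation, with 3 libraries each at days 0, 2, 4 and 6. Experiment 2 differentiated wild-type pBAT cells with 10 µM heme-arginate and 1 mM succinylacetone together (HASA), with 1 mM succinylacetone alone (SA), which inhibits heme synthesis, with 10 µM heme-arginate alone (HA), or with Vehicle, with 4 libraries each. Experiment 3 compared brown adipose tissue of 4 female mice lacking Alas1, which encodes the enzyme that opens heme synthesis, in brown adipocytes only (BAKO) with that of 4 female wild-type mice (WT). The labels name neither the Cre driver nor the strain or age of these mice, and they do not say whether the libraries of experiments 1 and 2 came from separate cultures, so p-values there measure only the spread between libraries.

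P450 enzymes bind heme through a cysteine and use molecular oxygen to hydroxylate or epoxidize lipids, steroids, retinoids, bile acid precursors and foreign compounds. Enzymes of the endoplasmic reticulum receive electrons from P450 reductase (Por), helped by cytochrome b5 (Cyb5a), and mitochondrial ones from ferredoxin (Fdx1) and its reductase (Fdxr). Without heme the protein has no activity, and transcripts of several members follow nuclear receptors or the aryl hydrocarbon receptor, which was first known for inducing family members in response to dioxin-like compounds.

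Promoters are shown for 4 members on which the results turn. Cyp1b1 and Cyp2ab1 were highest in cells given heme-arginate with succinylacetone. Cyp2b10 had the largest difference of the described genes between BAKO and WT brown fat, although no described gene was called there. Cyp2e1 changed most by day 6 of differentiation. Each promoter is the 250 bases before the RefSeq start of the gene (build GRCm38.p6). It is read 5′ to 3′ on the strand of the gene, with copies of GCGTG or its reverse complement in capitals. GCGTG is the core to which the aryl hydrocarbon receptor binds with Arnt.
Cyp1b1: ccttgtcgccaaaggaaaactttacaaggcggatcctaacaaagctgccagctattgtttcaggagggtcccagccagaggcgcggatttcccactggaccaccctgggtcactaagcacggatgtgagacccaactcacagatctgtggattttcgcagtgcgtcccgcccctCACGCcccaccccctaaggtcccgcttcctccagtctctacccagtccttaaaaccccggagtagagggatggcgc
Cyp2ab1: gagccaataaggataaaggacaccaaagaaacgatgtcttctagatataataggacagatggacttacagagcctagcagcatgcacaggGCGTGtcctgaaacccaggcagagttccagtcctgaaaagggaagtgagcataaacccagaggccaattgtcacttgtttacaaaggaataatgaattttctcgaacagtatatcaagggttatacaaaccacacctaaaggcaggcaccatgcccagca
Cyp2b10: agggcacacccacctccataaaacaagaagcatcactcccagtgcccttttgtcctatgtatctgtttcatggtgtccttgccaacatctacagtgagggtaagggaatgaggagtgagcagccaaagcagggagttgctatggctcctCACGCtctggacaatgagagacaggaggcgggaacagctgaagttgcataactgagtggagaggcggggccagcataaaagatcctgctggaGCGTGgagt
Cyp2e1: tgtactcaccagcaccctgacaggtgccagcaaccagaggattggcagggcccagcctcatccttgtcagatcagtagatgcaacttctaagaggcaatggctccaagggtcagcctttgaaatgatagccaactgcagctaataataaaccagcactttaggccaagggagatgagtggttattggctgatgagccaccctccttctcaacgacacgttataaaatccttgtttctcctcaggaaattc
The Cyp1b1 stretch lies at chr17:79715062-79715311 on the minus strand, that of Cyp2ab1 at chr16:20325405-20325654 on the minus strand, that of Cyp2b10 at chr7:25897408-25897657 on the plus strand and that of Cyp2e1 at chr7:140763569-140763818 on the plus strand. Cyp1b1 and Cyp2ab1 held 1 copy of the core each, Cyp2b10 held 2, and Cyp2e1 held none. The table had a promoter for 20 of the 28 described genes. GCGTG was present on either strand in 9 of these 20 (45%), against 28.2% of all 32851 promoters in the table. TGACNNNGC, a core of the antioxidant response element, was present on either strand in 1 of the 20, that of Cyp4f18, against 10.2% of all promoters. A match is a string of letters in this window and is given as a description.

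Cyp2e1 and Cyp2f2, which oxidize small foreign molecules, and the sterol hydroxylase gene Cyp27a1 were among the genes with the largest differences during differentiation in all 3 cell types, and Cyp1b1 was lower by day 6 in all 3. At day 6 against day 0, 15 of 19 described genes were higher and 3 lower in B9 cells, 12 of 20 higher and 3 lower in pBAT cells, and 12 of 19 higher and 4 lower in pWAT cells. Of all genes tested, 40.5% were higher and 38.8% lower in B9 cells, 38.3% and 39.2% in pBAT cells, and 35.3% and 35.5% in pWAT cells. At day 2, 11, 7 and 10 genes were higher and 2, 4 and 3 lower in B9, pBAT and pWAT cells, where 35.1%, 36.7% and 27.1% of all genes were higher and 34%, 29.7% and 25.5% lower. At day 4, 13, 11 and 13 were higher and 3, 5 and 4 lower, where 37.6%, 36.4% and 32.8% of all genes were higher and 37.3%, 37.1% and 32.8% lower. These calls are from limma with Benjamini-Hochberg adjusted p under 0.05 over all genes of a table whose highest group mean reached 4. A gene under 4 at day 0 enters only if a later day is higher: 7 of the 19 genes in B9 cells, 2 of 20 in pBAT cells and 3 of 19 in pWAT cells had a day 0 mean under 4, so the counts of higher genes are a description and carry no weight of their own. The p-values of those genes against day 0 are likewise a description. Cyp2e1 and Cyp2ab1 are among them in each cell type, and Cyp2f2, Cyp27a1 and Cyp2b10 in B9 cells. Among the genes with a day 0 mean of at least 4, 8 of 12, 10 of 18 and 10 of 16 were higher in B9, pBAT and pWAT cells. The median day 6 change of these 12, 18 and 16 genes was 0.85, 0.45 and 0.79 log2 units, where the median of all genes tested was within 0.03 of 0. The latter median includes genes under 4 at day 0. No share or median was computed for all genes with a day 0 mean of at least 4. The sets are thus unlike, and these values are a description too.

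Of 17 genes described in all 3 cell types, 7 were higher at day 6 in each of them (Cyp2e1, Cyp2f2, Cyp27a1, Cyp2ab1, Cyp2d22, Cyp2j9 and Cyp4f13) and 3 were lower in each (Cyp1b1, Cyp20a1 and Cyp4f16). The share of all genes called alike in all 3 cell types was not computed, so these counts are a description. Cyp2e1 and Cyp2ab1 had a day 0 mean under 4 in all 3 cell types, and Cyp2f2, Cyp27a1 and Cyp2j9 in B9 cells. Each cell type has a table normalized by itself, so levels and changes are set side by side here and differences between cell types were not tested. RNA came from whole cultures, in which fewer cells of a type and less RNA per cell cannot be told apart. Marker levels of other cell states moved in the same days. The summed adipocyte markers (7 of 7 genes higher in each cell type) reached 17.51 to 17.60 at day 6, against 12.01 to 12.09 at day 0, in B9 cells, 17.92 to 18.09 against 12.48 to 12.54 in pBAT cells, and 17.98 to 18.04 against 11.58 to 12.14 in pWAT cells on the log2 scale. Smooth muscle markers, which activated preadipocytes can also express, summed to 10.64 to 10.85 at day 6, against 16.13 to 16.32 at day 0, in B9 cells, 12.70 to 12.90 against 17.30 to 17.38 in pBAT cells, and 12.35 to 12.47 against 17.25 to 17.42 in pWAT cells, with 4, 5 and 5 of 6 lower and 2, 1 and 0 higher. Preadipocyte markers summed to 12.63 to 12.94 against 14.15 to 14.27 in B9 cells, 13.49 to 13.77 against 14.76 to 14.77 in pBAT cells, and 14.94 to 15.26 against 14.62 to 14.71 in pWAT cells, with 4 of 6, 4 of 6 and 1 of 7 lower and 2, 2 and 6 higher. The part of these cell states in the P450 values, the lower Cyp1b1 among them, was not tested.

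**Figure D1:**
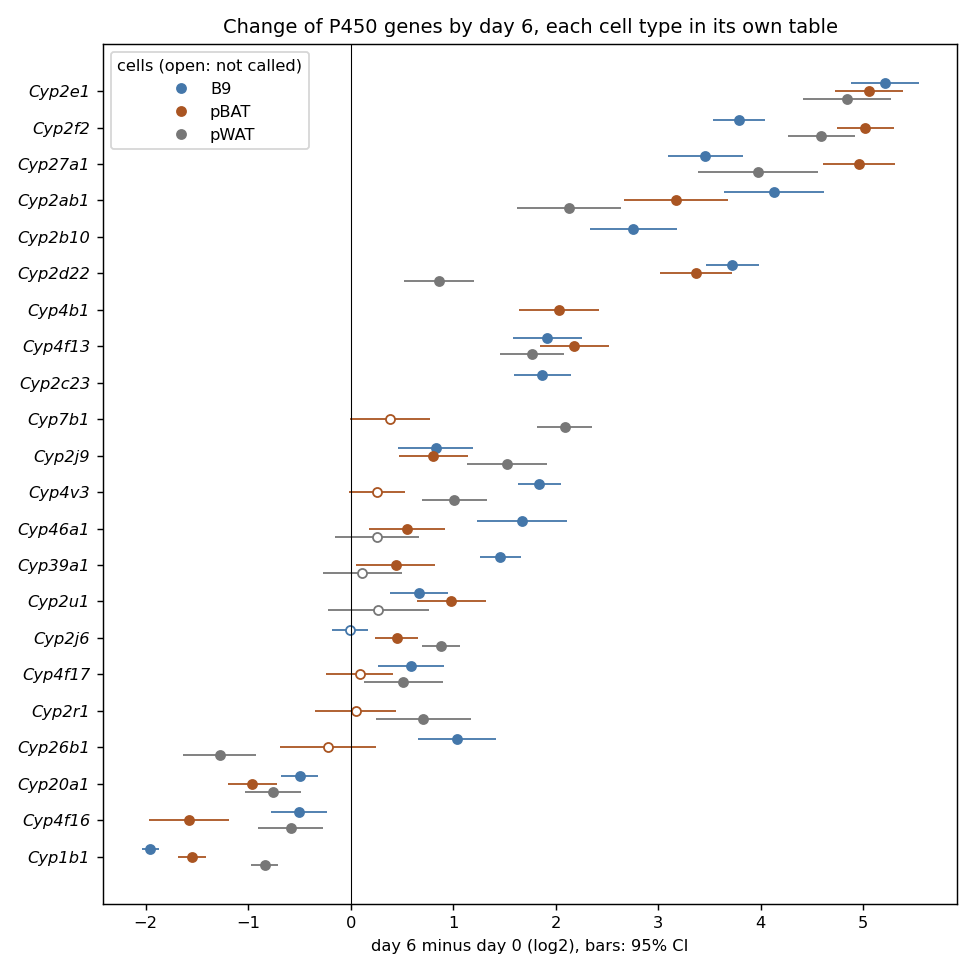
Difference between day 6 and day 0 (x axis, log2 units) for each described P450 gene (y axis), with 95% confidence intervals; blue B9, brown pBAT, grey pWAT, open points not called. Cyp2e1 lies at the top with differences of 5.21, 5.06 and 4.84, and Cyp1b1 at the bottom with -1.95, -1.55 and -0.84.

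Cyp2e1, which oxidizes ethanol, acetone and other small molecules and is best known from liver, had the largest day 6 difference of the described genes in all 3 cell types. Its values in B9 cells were on day 0 3.72, 3.49 and 3.50, on day 2 3.91, 4.41 and 4.41, on day 4 8.32, 8.29 and 8.15 and on day 6 8.71, 8.66 and 8.98. In pBAT cells they were on day 0 3.44, 3.31 and 3.33, on day 2 7.70, 8.20 and 7.999, on day 4 10.02, 9.77 and 9.67 and on day 6 8.41, 8.66 and 8.17, and in pWAT cells on day 0 3.58, 3.57 and 3.79, on day 2 7.17, 6.56 and 7.43, on day 4 8.89, 8.73 and 8.60 and on day 6 8.76, 8.39 and 8.33. All later libraries lay above all day 0 libraries in each cell type, but the timing differed by culture: in pBAT and pWAT cells most of the difference was present at day 2, and in B9 cells it appeared at day 4. At day 6 against day 0 the change was 5.21 (SE 0.15, adjusted p = 3.30e-13) in B9 cells, a 37.1-fold difference, 5.06 (SE 0.16, adjusted p = 2.34e-13) in pBAT cells and 4.84 (SE 0.20, adjusted p = 1.98e-11) in pWAT cells. In pBAT cells day 4 was the highest point, at 6.46 log2 units above day 0. The day 0 mean of Cyp2e1 was under 4 in each cell type. It was tested only because later days were higher, so its p-values against day 0 are a description.

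Cyp2f2, which oxidizes naphthalene in the club cells of the mouse airway, was far above its day 0 level from day 2 on. In B9 cells it read on day 0 3.96, 3.93 and 4.02, on day 2 8.43, 8.62 and 8.50, on day 4 7.74, 7.90 and 7.75 and on day 6 7.98, 7.60 and 7.71, so that day 2 was the highest. At day 6 it read 9.55, 9.50 and 9.53, against 4.70, 4.59 and 4.23 at day 0, in pBAT cells, and 8.82, 8.94 and 8.66, against 3.90, 4.46 and 4.28, in pWAT cells. The day 6 groups lay clear of day 0 in all 3 cell types, with changes of 3.79 (SE 0.12, adjusted p = 6.49e-13) in B9, 5.02 (SE 0.13, adjusted p = 3.96e-14) in pBAT and 4.59 (SE 0.15, adjusted p = 1.99e-12) in pWAT cells. A predicted gene, Gm15883, shares 10.9% of the 31-base words of Cyp2f2 transcripts, so a part of its reads could be assigned either way.

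Cyp2ab1, a member of family 2, was near the floor of the scale at day 0 and rose late. Its values in pBAT cells were on day 0 3.39, 2.60 and 2.61, on day 2 2.29, 2.41 and 3.00, on day 4 7.32, 7.44 and 7.09 and on day 6 5.97, 6.18 and 5.99, with a peak at day 4. In B9 cells it read 6.31, 6.47 and 6.18 at day 6, against 2.18, 2.20 and 2.18 at day 0, and in pWAT cells 4.68, 4.46 and 4.30, against 2.35, 2.35 and 2.35. No day 6 library overlapped day 0, and the changes were 4.13 (SE 0.23, adjusted p = 3.44e-10) in B9, 3.18 (SE 0.24, adjusted p = 8.73e-09) in pBAT and 2.13 (SE 0.24, adjusted p = 1.41e-06) in pWAT cells. Values as low as those of day 0 are compressed on the deposited scale, so the fold differences are understated. The day 0 mean of Cyp2ab1 was under 4 in each cell type. It was tested only because later days were higher, so its p-values and lack of overlap are a description.

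Cyp2d22, of the drug-oxidizing CYP2D subfamily, read 9.72, 9.86 and 9.89 at day 6, against 5.99, 6.24 and 6.06 at day 0, in B9 cells. In pBAT cells it read 9.63, 10.12 and 9.53 against 6.17, 6.31 and 6.69, and in pWAT cells 9.13, 9.06 and 8.42 against 7.96, 7.996 and 8.09. Groups did not overlap, although in pWAT cells the lowest day 6 library (8.42) came near the highest of day 0 (8.09). The changes were 3.72 (SE 0.12, adjusted p = 8.67e-13) in B9, 3.37 (SE 0.17, adjusted p = 5.90e-11) in pBAT and 0.86 (SE 0.16, adjusted p = 2.22e-04) in pWAT cells. In B9 cells the difference at day 2 was already 3.44, with 2.26 at day 4.

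Cyp2b10, a target of the nuclear receptor CAR in liver, passed the threshold within experiment 1 in B9 cells alone. It read on day 0 3.39, 3.38 and 3.39, on day 2 4.68, 4.81 and 4.01, on day 4 5.82, 5.71 and 5.61 and on day 6 5.90, 6.08 and 6.45, and its day 6 change was 2.76 (SE 0.20, adjusted p = 7.67e-09). In pBAT cells its highest group mean was 3.84, just below the threshold. Transcripts of Cyp2b10 share 19.4% of their 31-base words with other genes, mostly Cyp2b13.

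**Figure D2:**
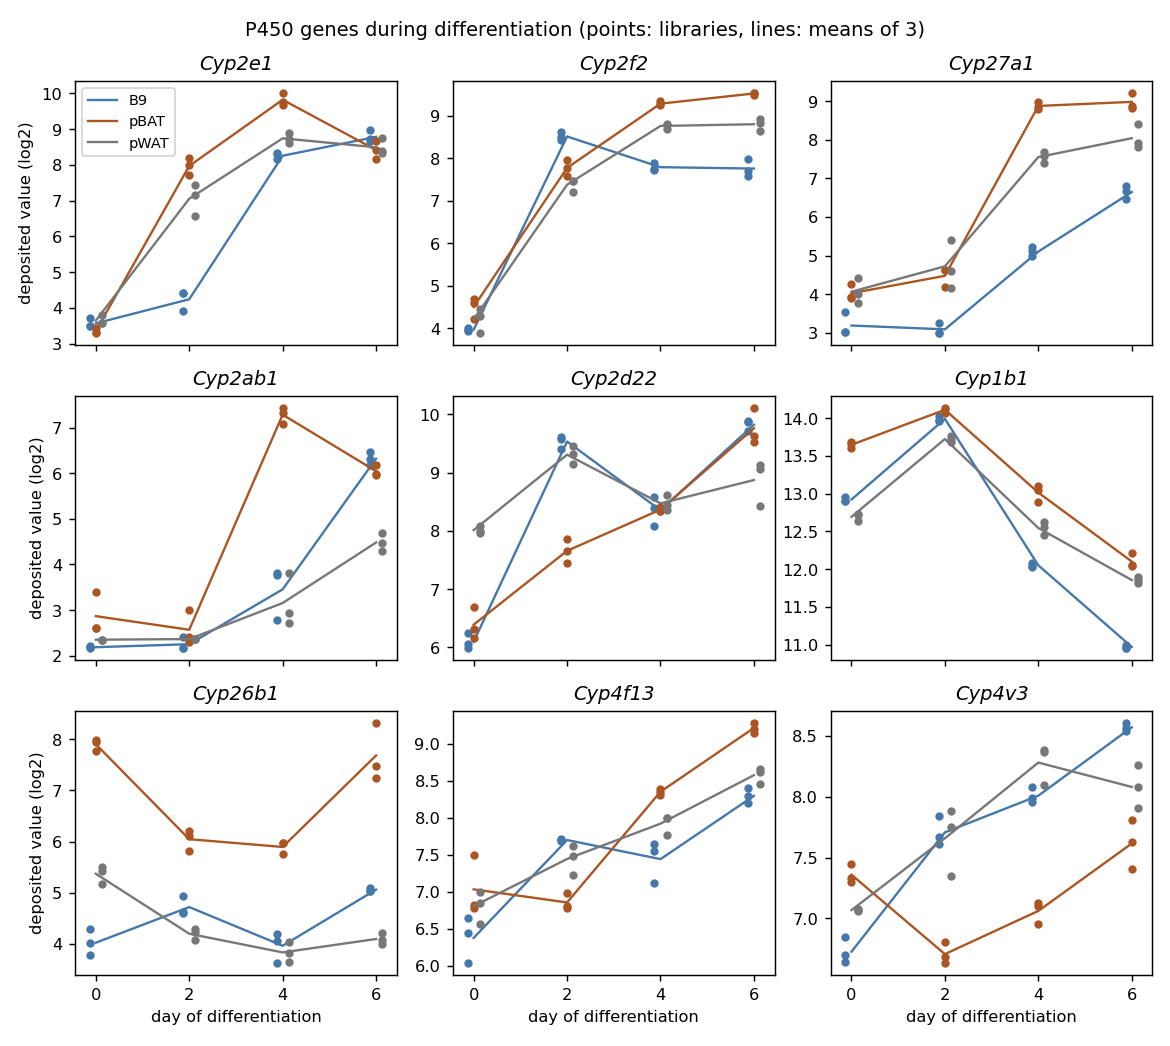
Deposited log2 value (y axis) by day of differentiation (x axis) for 9 P450 genes, each with its own scale; points are libraries (3 a day) and lines join day means, in blue for B9, brown for pBAT and grey for pWAT cells. Each cell type was normalized in its own table, so heights are to be read within a colour: Cyp1b1 peaks at day 2 in all 3, and Cyp26b1 ends above day 0 in B9 and below it in pWAT cells.

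The sterol group holds Cyp27a1, the mitochondrial sterol side-chain hydroxylase of bile acid and oxysterol synthesis, Cyp7b1 and Cyp39a1, which hydroxylate oxysterols, and Cyp46a1, the cholesterol hydroxylase of neurons. At day 6, 3 of 3 described sterol genes were higher in B9 cells, 3 of 4 in pBAT cells and 2 of 4 in pWAT cells, and none was lower. Of all genes tested, 40.5%, 38.3% and 35.3% were higher and 38.8%, 39.2% and 35.5% lower. Cyp27a1 in B9 cells and Cyp46a1 in pWAT cells had a day 0 mean under 4, so they were tested only because a later day was higher. These counts of few genes are a description. Of the genes higher in pBAT cells, Cyp39a1 and Cyp46a1 lost their calls under several alternatives. Cyp27a1 accounted for the largest differences. In B9 cells it read on day 0 3.54, 3.01 and 3.01, on day 2 3.00, 3.26 and 3.00, on day 4 5.23, 5.11 and 4.98 and on day 6 6.66, 6.81 and 6.46. In pBAT cells it read on day 0 3.92, 3.90 and 4.25, on day 2 4.63, 4.62 and 4.18, on day 4 8.98, 8.80 and 8.84 and on day 6 8.84, 9.22 and 8.89, and in pWAT cells on day 0 3.78, 4.41 and 3.99, on day 2 5.40, 4.17 and 4.59, on day 4 7.67, 7.39 and 7.59 and on day 6 8.41, 7.91 and 7.80. Day 0 and day 2 values overlapped in B9 and pBAT cells, and all day 4 and day 6 libraries lay above them in all 3 cell types. In pBAT cells Cyp27a1 was called higher at day 2, by 0.45 (adjusted p = 0.0259). That call was lost under several alternatives, among them the replicate block (adjusted p = 0.0579) and median centring (adjusted p = 0.0642). The day 6 changes were 3.46 (SE 0.17, adjusted p = 1.05e-10) in B9, 4.96 (SE 0.17, adjusted p = 5.96e-13) in pBAT and 3.98 (SE 0.27, adjusted p = 6.51e-09) in pWAT cells.

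Cyp27a1 is also expressed by macrophages, and macrophage markers moved over the same days in the primary cultures. In pBAT cells 11 of 13 tested markers were higher at day 6 and none lower, with a summed level of 14.16 to 14.46 at day 6 against 11.96 to 12.09 at day 0, and Marco under 4 throughout. In pWAT cells 13 of 14 were higher, with 14.8 to 14.9 against 11.4 to 11.5. In B9 cells, a cell line, 10 of the 14 markers, Adgre1, C1qa, Mrc1 and Lyz2 among them, were not tested because they were under 4 or had no row in the table, the summed level was 8.29 to 8.49 at day 6 against 8.50 to 8.72 at day 0, and Cyp27a1 was higher by 3.46. The part of macrophages in the values of the primary cultures was not tested.

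Cyp7b1 was highest at day 2 in both primary cultures. In pWAT cells it read on day 0 6.92, 7.27 and 7.16, on day 2 9.72, 9.96 and 9.55, on day 4 8.43, 8.66 and 8.53 and on day 6 9.22, 9.12 and 9.29, and the day 6 change was 2.09 (SE 0.13, adjusted p = 1.42e-09). In pBAT cells it read on day 0 6.47, 5.87 and 6.35, on day 2 8.17, 7.96 and 8.14, on day 4 6.69, 7.04 and 7.13 and on day 6 6.67, 6.34 and 6.85; the difference was 1.86 at day 2 (adjusted p = 3.67e-07) and 0.39 (SE 0.18, adjusted p = 0.0640) at day 6, where the groups overlapped. Without pBAT day 0 library 2 or day 6 library 2 the day 6 difference passed the threshold, with adjusted p of 0.0318 and 0.0226. Cyp39a1 and Cyp46a1 changed by 1.46 and 1.68 in B9 cells and by 0.44 and 0.55 in pBAT cells, and both missed the threshold in pWAT cells, at 0.11 and 0.26. In pWAT cells Cyp46a1 was higher by 0.65 at day 2 (adjusted p = 0.0100). In pBAT cells the adjusted p of Cyp39a1, 0.0381, was 0.116 with the replicate block, 0.0511 with no filter, 0.0673 with median centring, 0.0766 with quantile normalization, and 0.0519 to 0.131 without day 0 library 3 or 4 or day 6 library 1, 2 or 4. That of Cyp46a1, 0.0101, was 0.0674 with quantile normalization, 0.0530 without day 0 library 2 and 0.0545 without day 6 library 4. Cyp2r1, which hydroxylates vitamin D, was higher in pWAT cells by 0.71 with overlapping groups, a value of 0.22 with no call under quantile normalization (adjusted p = 0.377), and differed by 0.05 in pBAT cells (adjusted p = 0.819).

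The genes of family 4, which oxidize the ends of fatty acids and eicosanoids, did not move as a block. Cyp4f13 read 8.40, 8.29 and 8.19 at day 6, against 6.04, 6.45 and 6.64 at day 0, in B9 cells, 9.29, 9.15 and 9.21 against 6.82, 7.49 and 6.78 in pBAT cells, and 8.61, 8.66 and 8.45 against 6.56, 7.00 and 6.85 in pWAT cells. It was higher without overlap in all 3, by 1.92, 2.18 and 1.77, with adjusted p of 3.84e-08, 5.21e-09 and 4.43e-08. Cyp4f16 was lower in all 3, with differences of -0.50, -1.58 and -0.59, but 26.8% of its 31-base words are shared, mostly with Cyp4f37. Cyp4b1, a fatty acid hydroxylase that also activates toxins, was described in pBAT cells, where it read 6.55, 6.41 and 6.17 at day 6 against 4.17, 4.33 and 4.54 at day 0, a change of 2.03 (SE 0.18, adjusted p = 7.57e-08) with no overlap. Cyp4v3, whose human counterpart CYP4V2 is mutated in a retinal lipid disorder, was higher by 1.84 in B9 and 1.01 in pWAT cells. In pBAT cells it was lower at day 2 by 0.65 on the log2 scale (adjusted p = 3.75e-04) and missed the threshold at day 6 (0.26, adjusted p = 0.0789); this gene was picked out after its values were seen.

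Cyp1b1, which oxidizes polycyclic hydrocarbons and estradiol and is a classic target of the aryl hydrocarbon receptor, was highest at day 2 and lowest at day 6. In B9 cells it read on day 0 12.91, 12.91 and 12.96, on day 2 14.03, 13.96 and 13.98, on day 4 12.09, 12.04 and 12.02 and on day 6 10.96, 10.96 and 10.99. In pBAT cells it read on day 0 13.60, 13.65 and 13.69, on day 2 14.14, 14.07 and 14.12, on day 4 12.89, 13.05 and 13.10 and on day 6 12.21, 12.06 and 12.04, and in pWAT cells on day 0 12.63, 12.73 and 12.72, on day 2 13.77, 13.73 and 13.68, on day 4 12.56, 12.63 and 12.45 and on day 6 11.82, 11.86 and 11.89. In each cell type all day 2 libraries lay above day 0 and all day 6 libraries below it. Against day 0, day 2 was higher by 1.07, 0.46 and 1.03 in B9, pBAT and pWAT cells (adjusted p = 8.62e-12, 1.46e-05 and 3.51e-09). Day 6 was lower, at -1.95 (SE 0.0397, adjusted p = 6.06e-15), -1.55 (SE 0.0641, adjusted p = 7.81e-12) and -0.84 (SE 0.0622, adjusted p = 1.61e-08). The small difference in pWAT cells at day 4, -0.15, lost its call under several alternative settings, among them quantile normalization (adjusted p = 0.327) and without pWAT day 4 library 4 (adjusted p = 0.204).

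Genes of the aryl hydrocarbon receptor pathway did not share 1 direction at day 6. In B9 cells 5 of 7 tested were higher and 2 lower, in pBAT cells 3 and 2 of 6, and in pWAT cells 2 and 2 of 6. The receptor Ahr itself was lower by 2.50, 2.82 and 1.90 on the log2 scale in B9, pBAT and pWAT cells, and Nqo1, a quinone reductase, was lower by 0.66, 2.42 and 1.53. Tiparp, which modifies the receptor, was higher by 1.93, 2.19 and 2.23, and the glucuronosyltransferase gene Ugt1a6a by 2.94, 0.56 and 2.22. Of the nuclear receptors that control P450 genes in liver, 6 of 8 tested were higher in B9, 6 of 7 in pBAT and 5 of 7 in pWAT cells. In the same cells 2, 1 and 1 were lower. Of all genes tested, 40.5%, 38.3% and 35.3% were higher and 38.8%, 39.2% and 35.5% lower. The receptors of foreign compounds Nr1i2 and Nr1i3 were not tested. Pparg, the driver of adipogenesis, was higher by 3.35, 3.90 and 3.45, and the oxysterol receptor Nr1h3 by 5.77, 4.14 and 5.03, while the vitamin D receptor Vdr was lower by 2.95, 2.23 and 2.98 on the log2 scale.

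Cyp26b1, which clears retinoic acid, was higher at day 6 in B9 cells and lower in pWAT cells. It read 5.04, 5.10 and 5.04 at day 6, against 4.01, 3.77 and 4.28 at day 0, in B9 cells, and 4.22, 4.07 and 4.00 against 5.51, 5.17 and 5.43 in pWAT cells. In pBAT cells it read on day 0 7.99, 7.77 and 7.95, on day 2 6.12, 6.21 and 5.81, on day 4 5.75, 5.96 and 5.97 and on day 6 7.49, 8.33 and 7.24. B9 day 6 libraries all lay above day 0 and pWAT day 6 libraries all below. The pBAT cells dipped at days 2 and 4 and overlapped day 0 at day 6. In B9 cells the difference was 0.70 at day 2, and day 4 overlapped day 0, at -0.06 (adjusted p = 0.772). The day 6 changes were 1.04 (SE 0.18, adjusted p = 8.66e-05) in B9, -0.22 (SE 0.22, adjusted p = 0.373) in pBAT and -1.28 (SE 0.17, adjusted p = 7.62e-06) in pWAT cells; without pBAT day 6 library 2 the pBAT value was -0.54 (adjusted p = 0.00834). Under quantile normalization the B9 value was 0.42 (adjusted p = 0.0403). Other retinoid genes were split: 4 higher and 1 lower of 6 tested in B9 cells, 5 and 5 of 11 in pBAT cells, and 4 and 6 of 11 in pWAT cells. Rbp4, the plasma retinol carrier, was higher by 6.58, 8.47 and 8.42, and Aldh1a1, which makes retinoic acid, by 0.97, 3.39 and 4.83. Crabp1, a retinoic acid binding protein, was lower by 4.53 in pBAT and 4.97 in pWAT cells on the log2 scale.

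The remaining described genes of experiment 1 changed by less than 2 log2 units. Cyp2c23 was described in B9 cells alone, at 1.87. In pBAT cells its group mean was 2.04 at day 0 and 3.36 at day 6, below the threshold and not tested. The arachidonic acid epoxygenase genes Cyp2j9 and Cyp2j6 changed by 0.83, 0.81 and 1.53 and by -0.01 (not called), 0.45 and 0.88 in B9, pBAT and pWAT cells. Cyp20a1, an enzyme of unknown substrate, was lower in all 3, by 0.50, 0.96 and 0.76 on the log2 scale. Cyp2u1, a fatty acid hydroxylase, and Cyp4f17 were higher in B9 cells, by 0.66 and 0.59; Cyp2u1 was also higher in pBAT cells, by 0.98, and Cyp4f17 in pWAT cells, by 0.51. Under quantile normalization Cyp4f17 lost its call in B9 cells, at 0.28, and in pWAT cells, at 0.40 (adjusted p = 0.0600), and in pWAT cells also without day 0 library 1 or day 6 library 1 (adjusted p = 0.0816 and 0.0711). The B9 changes of Cyp2j9 and Cyp2u1 were 0.39 and 0.31 under it and kept their calls.

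Of 8 tested redox and heme-handling genes, which include electron donors of the P450 enzymes, 6 were higher at day 6 in B9, 7 in pBAT and 6 in pWAT cells. In the same cells 1, 1 and 0 were lower. Of all genes tested, 40.5%, 38.3% and 35.3% were higher and 38.8%, 39.2% and 35.5% lower. Cytochrome b5 (Cyb5a) was higher by 1.90, 2.18 and 2.47, the reductase Por by 0.58, 1.45 and 1.05, and Fdx1, the donor of mitochondrial P450 enzymes, by 1.39, 2.30 and 1.19. Cyb5r3, the b5 reductase, was the gene that was lower, by 0.17 in B9 and 0.30 in pBAT cells on the log2 scale. Ptgis, prostacyclin synthase and a P450 enzyme without the Cyp name, was lower by 1.77, 1.74 and 1.43, and Tbxas1, thromboxane synthase, was higher by 1.43 in pBAT and 2.22 in pWAT cells. Among genes that use P450 products, Ephx2, the soluble epoxide hydrolase, was higher by 4.49, 4.40 and 5.23, and Hsd3b7, the next enzyme of bile acid synthesis, by 3.08, 3.20 and 3.18. Alas1, which sets heme supply, stood at 12.8 to 13.0 at day 6, against 10.2 to 10.4 at day 0, in B9 cells.

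In experiment 2 heme-arginate and succinylacetone were set against each other and against Vehicle in pBAT cells. Of 21 described genes, 5 were higher and 5 lower in SA than in Vehicle cells, where 20% of all genes tested were higher and 21.4% lower, so the share of P450 genes called was close to that of all genes. HA against Vehicle had 2 higher (Cyp1b1 and Cyp7b1) and none lower, with 4.88% and 4.09% of all genes called. HASA against SA had 7 higher and 7 lower, against 12.4% and 12.3% of all genes, and HASA against Vehicle 5 higher and 9 lower, against 20.9% and 23%. HASA against HA had 5 higher and 8 lower, with 20.4% and 22.4% of all genes called. These comparisons share control libraries, so their values are given side by side and no overlap between them is counted. Alas1 stood at 12.4 to 12.6 in HASA cells, 13.6 to 13.8 in SA cells, 11.997 to 12.19 in HA cells and 12.4 to 12.5 in Vehicle cells.

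Cyp1b1 was the member with the largest response to heme-arginate. Cyp1b1 stood at 12.44, 12.43, 12.52 and 12.46 in HASA libraries, 11.35, 11.48, 11.30 and 11.32 in SA libraries, 12.27, 12.32, 12.30 and 12.36 in HA libraries and 11.62, 11.66, 11.63 and 11.38 in Vehicle libraries. All HASA and HA libraries lay above all SA and Vehicle libraries, and Vehicle 4 lay among the SA libraries. HASA was higher than SA by 1.10 (SE 0.0528, adjusted p = 3.36e-10), a 2.14-fold difference with a 95% confidence interval of 0.99 to 1.21 log2 units, and HA was higher than Vehicle by 0.74 (SE 0.0528, adjusted p = 1.26e-07), or 1.67-fold. SA was lower than Vehicle by 0.21 on the log2 scale (adjusted p = 0.00425). The interaction, the difference between HASA and HA minus the difference between SA and Vehicle, was 0.36 (SE 0.0747, adjusted p = 0.00700): the difference between cells with and without heme-arginate was larger in the presence of succinylacetone. Of the 21 genes, 2 had an interaction above 0 and 1 below 0, against 3.88% and 3.79% of all genes. The smaller difference of HASA against HA, 0.15 (adjusted p = 0.0285), lost its call when HA 1, HA 2, HA 3, HASA 3 or HASA 4 was left out, with adjusted p of 0.0514 to 0.0795.

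Beside Cyp1b1, 5 of 7 tested genes of the aryl hydrocarbon receptor list were higher and 1 lower in HASA than in SA cells: Nqo1 by 0.68 (adjusted p = 3.85e-07), Ugt1a6a by 0.26, Ahr by 0.27 and Tiparp by 0.12 were among them. HA against Vehicle had 2 of 7 higher, Ugt1a6a (0.43) and Nqo1 (0.38). SA against Vehicle had 2 higher and 2 lower, Nqo1 at 1.51 and Ugt1a6a at 0.62, against Tiparp at -0.24 and Arnt at -0.12. Nqo1 and Ugt1a6a are also targets of the oxidative stress factor Nrf2. Preadipocyte markers had a summed level of 12.80 to 12.87 in HASA, 12.49 to 12.55 in SA, 12.93 to 13.02 in HA and 12.87 to 13.01 in Vehicle cells. Of the 5 tested, 4 were higher in HASA than in SA and 5 were lower in SA than in Vehicle cells, with Dpp4 and Pi16 under 4. Macrophage markers, of which 11 of 13 tested were higher in HASA than in SA, summed to 13.29 to 13.53 in HASA, 12.53 to 12.62 in SA, 13.20 to 13.41 in HA and 12.70 to 12.91 in Vehicle cells, with Fcgr1 under 4. Their part in the P450 values, Cyp1b1 and Cyp27a1 among them, was not tested.

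**Figure D3:**
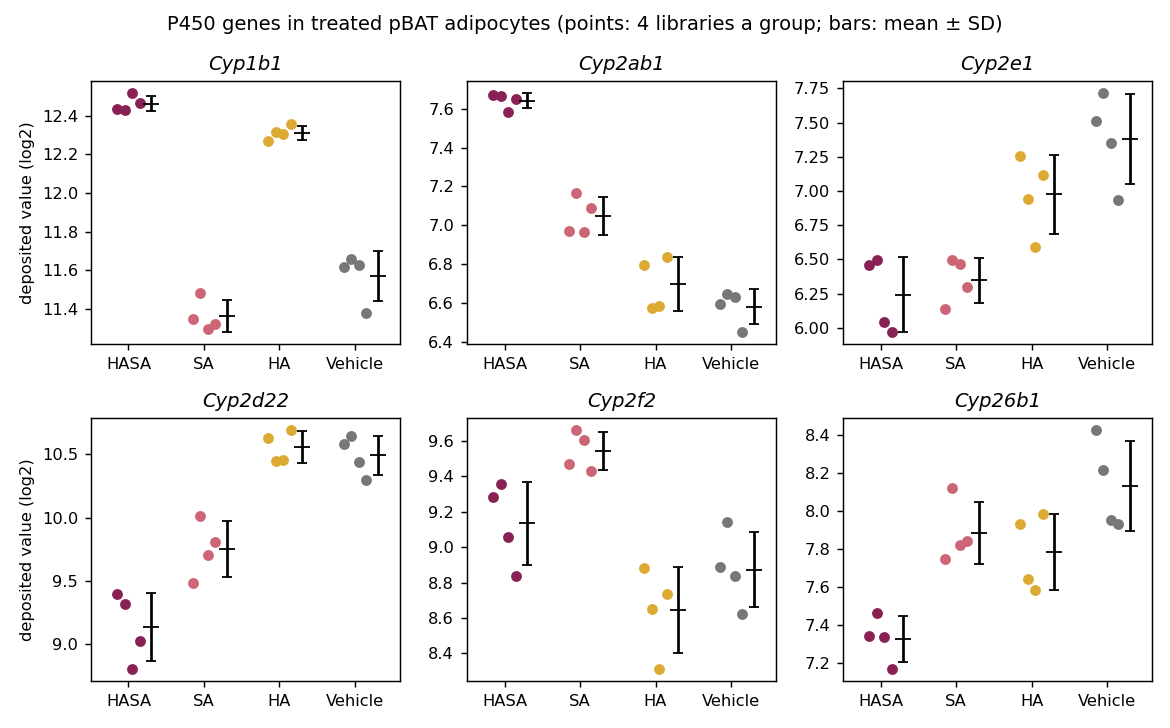
Deposited log2 value (y axis, own scale in each panel) of 6 P450 genes in pBAT cells by treatment (x axis: HASA, SA, HA, Vehicle); points are libraries (4 a group), and bars show the mean and SD. Cyp1b1 separates groups with heme-arginate, at 12.27 to 12.52, from those without, at 11.30 to 11.66, whereas Cyp2e1 and Cyp2d22 separate groups with succinylacetone from those without.

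Cyp2ab1 was higher with SA and highest with HASA. Cyp2ab1 stood at 7.67, 7.66, 7.58 and 7.65 in HASA libraries, 6.97, 7.17, 6.97 and 7.09 in SA libraries, 6.80, 6.58, 6.59 and 6.84 in HA libraries and 6.60, 6.65, 6.63 and 6.45 in Vehicle libraries. HASA libraries lay above all others, SA libraries above all HA and Vehicle libraries, and HA and Vehicle libraries overlapped. SA was higher than Vehicle by 0.47 (SE 0.0666, adjusted p = 2.30e-05), HASA higher than SA by 0.59 (SE 0.0666, adjusted p = 7.71e-06), and HASA higher than Vehicle by 1.06 (SE 0.0666, adjusted p = 6.75e-10), or 2.08-fold. HA alone differed from Vehicle by 0.12 with an interval of -0.02 to 0.26 (adjusted p = 0.305). The interaction was 0.48 (SE 0.0942, adjusted p = 0.00492).

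Cyp2e1 was lower wherever SA was given. Cyp2e1 stood at 6.46, 6.50, 6.04 and 5.97 in HASA libraries, 6.13, 6.49, 6.46 and 6.30 in SA libraries, 7.25, 6.94, 6.59 and 7.12 in HA libraries and 7.51, 7.72, 7.35 and 6.94 in Vehicle libraries. No HASA or SA library reached the lowest HA or Vehicle library. SA was lower than Vehicle by 1.03 on the log2 scale (SE 0.16, adjusted p = 6.66e-05), a 2.05-fold difference, and HASA was lower than Vehicle by 1.14 (adjusted p = 1.96e-05) and lower than HA by 0.73 (adjusted p = 0.00146). HASA against SA differed by -0.11, with an interval of -0.45 to 0.24 and an adjusted p of 0.686. A difference between HASA and SA as large as its difference between SA and Vehicle lay outside the interval. Brown adipocyte markers were also lower with SA: they summed to 11.56 to 11.73 in HASA, 11.78 to 11.86 in SA, 12.84 to 13.02 in HA and 12.53 to 12.81 in Vehicle cells, with 5 of 7 lower and none higher in SA than in Vehicle cells and 2 of 7 lower in HASA than in SA cells. General adipocyte markers summed to 18.30 to 18.41 in HASA, 18.21 to 18.29 in SA, 17.93 to 18.08 in HA and 17.92 to 18.05 in Vehicle cells, with 5 of 7 higher and none lower in SA than in Vehicle cells. Their part in the values of Cyp2e1, Cyp2d22, Cyp2f2 and Cyp26b1 was not tested.

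Cyp2d22 was lower with SA and lower still with HASA. Cyp2d22 stood at 9.39, 9.32, 8.80 and 9.03 in HASA libraries, 9.48, 10.01, 9.70 and 9.81 in SA libraries, 10.63, 10.45, 10.46 and 10.69 in HA libraries and 10.58, 10.64, 10.44 and 10.30 in Vehicle libraries. HASA libraries lay below all SA libraries, and both lay below HA and Vehicle libraries, which overlapped. SA was lower than Vehicle by 0.74 on the log2 scale (SE 0.12, adjusted p = 9.82e-05), HASA lower than SA by 0.62 (adjusted p = 0.00139), and HASA lower than Vehicle by 1.36 (adjusted p = 7.48e-08), or 2.56-fold. HA alone differed from Vehicle by 0.07 (adjusted p = 0.802), and the interaction was -0.68 (SE 0.17, adjusted p = 0.0213).

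Cyp2f2 was higher with SA. Cyp2f2 stood at 9.28, 9.36, 9.06 and 8.84 in HASA libraries, 9.47, 9.66, 9.61 and 9.43 in SA libraries, 8.88, 8.65, 8.31 and 8.73 in HA libraries and 8.89, 9.14, 8.84 and 8.62 in Vehicle libraries. SA libraries lay above all others, and HASA libraries overlapped HA and Vehicle libraries. SA was higher than Vehicle by 0.67 (SE 0.13, adjusted p = 3.52e-04) and HASA higher than HA by 0.49 (SE 0.13, adjusted p = 0.00437). HASA was lower than SA by 0.41 on the log2 scale (adjusted p = 0.0235), a call that was lost without SA 2, SA 3, HASA 3 or HASA 4 (adjusted p = 0.0594 to 0.0887).

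Cyp26b1 was lowest in HASA cells. Cyp26b1 stood at 7.34, 7.46, 7.33 and 7.17 in HASA libraries, 7.74, 8.12, 7.82 and 7.84 in SA libraries, 7.93, 7.64, 7.58 and 7.98 in HA libraries and 8.43, 8.21, 7.95 and 7.93 in Vehicle libraries. HASA libraries lay below all others, and the other groups overlapped. HASA was lower than SA by 0.56, lower than HA by 0.46 and lower than Vehicle by 0.80 on the log2 scale (adjusted p = 0.00190, 0.00359 and 1.80e-05). SA against Vehicle, at -0.25 (adjusted p = 0.0910), passed the threshold only without SA 2 or without Vehicle 4, with adjusted p of 0.0352 and 0.0455. Of 9 tested retinoid genes, SA against Vehicle had 2 higher and 3 lower, with the retinoic acid target Rarb at -0.38, and HASA against SA had 1 higher, Dhrs3 at 0.22.

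Among the sterol genes, Cyp27a1 and Cyp7b1 moved in unlike ways. Cyp27a1 read 9.07, 9.17, 8.85 and 8.84 in HASA and 9.39, 9.52, 9.61 and 9.40 in SA libraries, which did not overlap, and 9.24, 9.00, 8.95 and 9.05 in HA and 9.40, 9.46, 9.31 and 8.93 in Vehicle libraries, which did. HASA was lower than SA by 0.49 on the log2 scale (SE 0.10, adjusted p = 0.00188). Cyp7b1 was lower in SA than in Vehicle cells by 0.37 (adjusted p = 9.91e-06) and higher in HA than in Vehicle cells by 0.21 (adjusted p = 0.0116). Cyp46a1 was higher in SA than in Vehicle cells by 0.18 (adjusted p = 0.00385).

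Of the 5 family 4 genes, Cyp4f16 was higher in SA than in Vehicle cells, by 0.36 (adjusted p = 1.44e-04), and Cyp4b1 lower, by 0.44 on the log2 scale (adjusted p = 4.62e-06), in both cases with no overlap of libraries. Cyp4b1 was also lower in HASA than in Vehicle cells, at -0.28 (adjusted p = 3.37e-04). Cyp20a1 was higher in SA than in Vehicle cells by 0.16. Among the 11 genes not called in this comparison the largest difference was that of Cyp26b1, -0.25. Without Vehicle 4, HA against Vehicle had 3 more calls, all lower: Cyp2e1 at -0.55, Cyp26b1 at -0.41 and Cyp27a1 at -0.33 (adjusted p = 0.0338, 0.0403 and 0.0240).

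**Figure D4:**
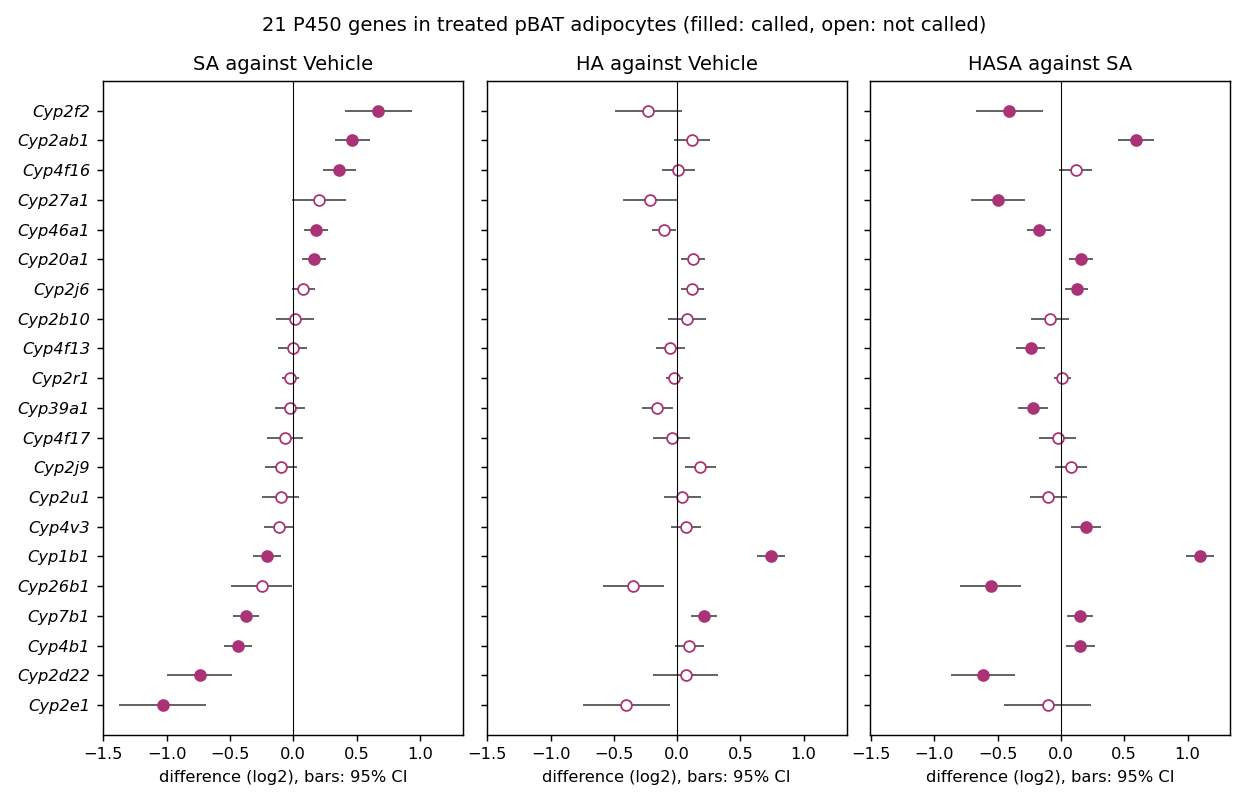
Difference in log2 units (x axis) with its 95% confidence interval for the 21 described P450 genes (y axis, ordered by SA against Vehicle) in 3 comparisons; filled points were called. In the left panel genes run from Cyp2f2 at 0.67 to Cyp2e1 at -1.03, and in the other panels Cyp1b1 lies farthest right, at 0.74 and 1.10.

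Against Vehicle, 4 of 8 tested redox and heme-handling genes were higher in SA cells, Pgrmc1, a heme-binding partner of P450 enzymes, by 0.65, Por by 0.51, Cyb5a by 0.48 and Cyb5r3 by 0.10, and 2 were lower, Fdxr by 0.28 and Fdx1 by 0.19 on the log2 scale. HASA against SA had 4 higher and 1 lower, with Cyb5a at 0.39 and Pgrmc1 at 0.24 (adjusted p = 7.91e-06 and 3.30e-05). HA against Vehicle had 2 higher, Cyb5a at 0.37 and Pgrmc1 at 0.24. Of 6 tested eicosanoid and epoxide genes, Ephx1, the microsomal epoxide hydrolase, at 0.92 and Ptges at 0.78 were higher in SA than in Vehicle cells and none was lower. Of 7 steroid genes, Hsd11b1, which activates glucocorticoid, was higher by 1.47, and 2 were higher and 2 lower in all.

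In brown fat none of the 25 described P450 genes was called between BAKO and WT mice, where 0.0519% of all genes tested were higher and 0.0593% lower by limma. At an unadjusted p under 0.05, 5 of the 25 differed: Cyp1b1, Cyp2b10, Cyp2f2, Cyp4b1 and Cyp26b1, all higher in BAKO, where 4.36% of all genes tested were higher and 4.33% lower by the same threshold. The knockout itself was plain in the values, with Alas1 at 10.15, 10.18, 10.45 and 10.61 in BAKO, against 12.79, 12.90, 12.73 and 12.97 in WT. In 4 of the 25 genes all BAKO mice lay above all WT mice and in none below, where 2.65% of all genes tested lay above and 2.94% below, and these 4 were picked out after their values were seen. Adipocyte markers summed to 18.08 to 18.28 in BAKO, against 18.38 to 18.54 in WT, with none of 7 called, and their part in these values was not tested.

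Cyp2b10 read 11.50, 11.56, 11.81 and 11.35 in BAKO mice 1, 2, 3 and 5, against 10.27, 10.46, 9.83 and 11.20 in WT mice 1, 3, 4 and 5. The groups did not overlap, although WT 5 lay close to the BAKO mice. The difference was 1.12 (SE 0.24), or 2.17-fold, with an interval of 0.58 to 1.66, an unadjusted p of 9.85e-04 and an adjusted p of 0.174. Without WT 5 it was 1.37 and passed the threshold (adjusted p = 0.0458), and without both BAKO 1 and WT 5 it was 1.39 (adjusted p = 0.157), an alternative added after the data were seen.

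Cyp1b1 read 8.57, 8.27, 8.33 and 8.49 in BAKO, against 7.89, 8.06, 7.95 and 7.86 in WT brown fat, a difference of 0.47 with an interval of 0.25 to 0.69 (unadjusted p = 7.08e-04, adjusted p = 0.154). Cyp2f2 read 5.18, 5.05, 5.15 and 5.15 against 4.63, 4.77, 4.73 and 4.84, a difference of 0.39 (unadjusted p = 3.56e-04, adjusted p = 0.120). Cyp4b1 read 10.80, 10.96, 11.31 and 11.81 against 10.49, 10.70, 10.48 and 10.78, a difference of 0.61 (unadjusted p = 0.0105, adjusted p = 0.368), and the lowest BAKO and highest WT mice all but met. Cyp2e1, lower with SA in cultured cells, read 10.70, 10.40, 10.67 and 10.21 in BAKO, against 10.09, 11.16, 10.41 and 11.06 in WT, with wide overlap and a difference of -0.19 (-0.70 to 0.32). Cyp2d22 differed by 0.13 (-0.15 to 0.41), and Cyp27a1 by 0.14 (-0.04 to 0.32). An adjusted p above the threshold does not show that these genes were alike in both genotypes.

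Several described genes of brown fat were high in single mice of both genotypes, and their intervals between genotypes were wide. That of Cyp3a11 ran from -0.78 to 1.23 and that of Cyp4a14 from -0.43 to 1.06 log2 units. Cyp3a11 read 5.93, 4.19, 3.90 and 3.96 in BAKO mice 1, 2, 3 and 5, against 3.98, 3.95, 3.94 and 5.20 in WT mice 1, 3, 4 and 5. Cyp4a14 read 6.38, 4.93, 5.03 and 4.92 against 4.75, 4.81, 4.77 and 5.67, and Cyp4a10 5.16, 4.68, 4.60 and 4.58 against 4.57, 4.43, 4.46 and 4.87. In all 3, which are abundant in liver, BAKO 1 and WT 5 were the highest of their groups. Albumin (Alb) was at 10.16, 7.19, 5.33 and 6.49 in BAKO, against 6.00, 5.61, 5.79 and 9.35 in WT, and the summed hepatocyte markers ran from 7.75 to 10.6 in BAKO and from 7.86 to 9.86 in WT, with Fga, Fgb and Tat under 4. These genes were chosen after their values were seen, and the part of liver RNA in their values was not tested. Cyp3a11 and Cyp4a10 also share 15.8% and 44.9% of their 31-base words with other genes. Skeletal muscle markers summed to between 8.59 and 16.6 in BAKO and between 8.68 and 12.4 in WT brown fat, highest in BAKO 3, where Acta1 stood at 14.65; the part of muscle RNA in the brown fat values was not tested.

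**Figure D5:**
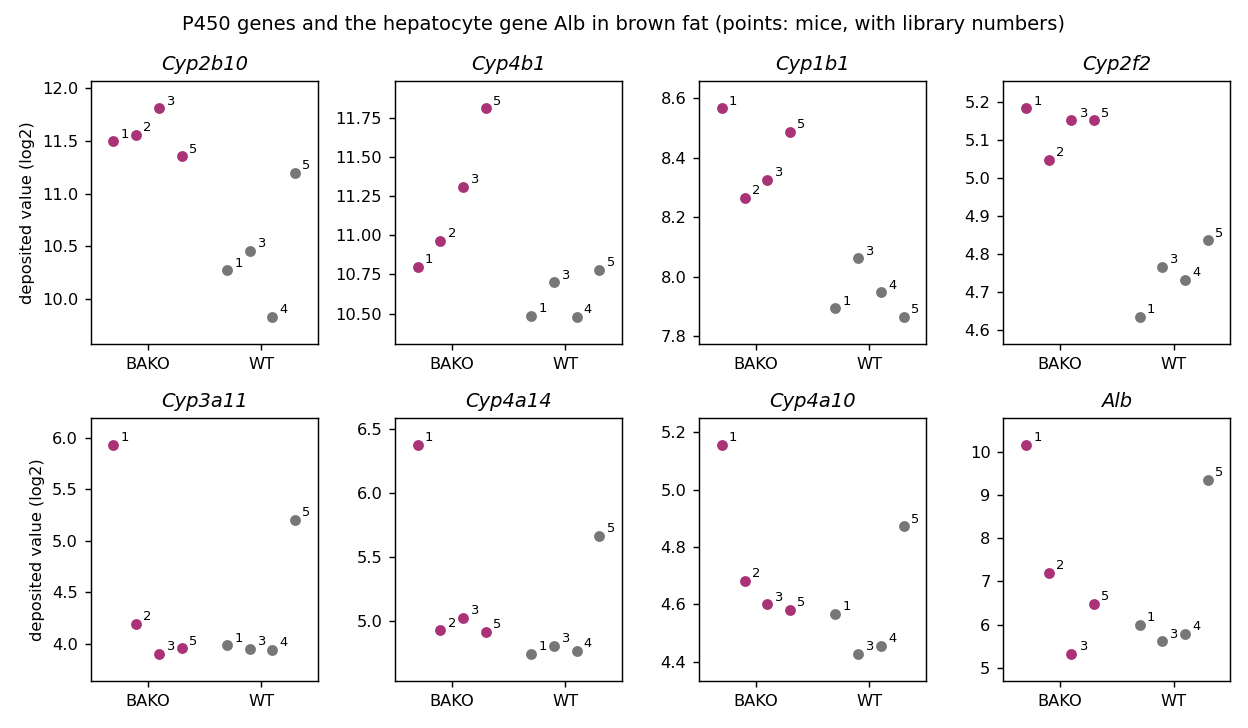
Deposited log2 value (y axis, own scale in each panel) of 7 P450 genes and of the hepatocyte gene Alb in brown fat of BAKO (left) and WT (right) mice; each point is 1 mouse, with its library number. The BAKO and WT points do not overlap for Cyp2b10, Cyp4b1, Cyp1b1 and Cyp2f2, and for Cyp3a11, Cyp4a14, Cyp4a10 and Alb BAKO 1 and WT 5 stand above the other mice.

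Among the other P450 genes described in brown fat, which included Cyp1a1, Cyp2t4 and Cyp4f18, Cyp26b1 had the largest difference. It read 7.07, 6.59, 6.76 and 6.47 in BAKO, against 6.22, 6.51, 6.39 and 6.13 in WT, with overlap between the genotypes, a difference of 0.41 and an adjusted p of 0.430. No redox partner of 8 tested, no aryl hydrocarbon receptor gene of 6 and no retinoid gene of 8 was called in either direction.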

How the data were processed

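RNA was sequenced from 60 libraries in 3 experiments. The deposited values are on a log2 scale, normalized by the authors in 5 separate tables; the base was inferred from the values. Kallisto, DESeq2 and the GRCm39 build are listed, without roles, in the submitters' processing notes. No counts were available to this work, so depth is unknown, no interval or limit from counting was made, and fold differences of low genes are understated. Gene IDs were matched to symbols of GENCODE names (99.63% to 99.77% of IDs per table).

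Each table was fitted in R 4.3.3 with limma 3.58.1 (trended variance, 1 mean per group, no block), over genes whose highest group mean was at least 4, with Benjamini-Hochberg adjustment over all of them and a call at adjusted p under 0.05. The fit was also run on simulated normal values with the gene means and spreads of experiment 2 only. That run does not test the fit for the other experiments. Intervals are 95% intervals of the fit. Alternatives were no filter, a filter of 6, no trend, the compared groups alone, a replicate block, median centring, quantile normalization and leaving out each library. For brown fat, BAKO 3 and BAKO 5 were also left out together. BAKO 1 and WT 5 were left out together as well, an alternative added after the data were seen. Genes given in full were those called with a change of at least 0.5 in experiments 2 or 3, or of at least 2 at day 6; others are named as members or list genes, or as picked after their values were seen. The members and gene lists were chosen with earlier results of these data known.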

Additional observations from a re-analysis of the deposited data

Results flagged for a closer look

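Single libraries stood far from the rest of their group of 4 in 10 of the 134 gene and group combinations tested by Dixon's criterion, of which chance gives about 1 in 20. In experiment 2 these were Cyp1b1 in Vehicle 4 (11.38), Cyp2j6 in HASA 2 (9.44), Cyp2r1 in HASA 1 (4.79), Cyp4f16 in HASA 2 (8.17) and Cyp4f17 in SA 2 (8.45). In brown fat they were Cyp3a11 in BAKO 1 (5.93) and WT 5 (5.20), Cyp4a14 in BAKO 1 (6.38) and WT 5 (5.67), and Cyp2t4 in WT 3 (4.22). Cyp3a11 and Cyp4a14 thus stood apart in the same pair of mice.

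The effect of SA differed with and without HA, by the interaction term of limma, for Cyp2ab1 (0.48), Cyp1b1 (0.36) and Cyp2d22 (-0.68).

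In 4 genes all libraries of a later day lay above those of day 0 in 1 cell type and below them in another. The share of all genes with such opposite moves was not computed, so the count is a description. The difference between cell types was not tested, since each cell type has a table of its own. For Cyp26b1 the day 2 difference from day 0 was 0.70 in B9, -1.86 in pBAT and -1.17 in pWAT cells, and the day 6 difference 1.04 in B9 and -1.28 in pWAT cells. For Cyp4v3 the day 2 difference was 0.98 in B9, -0.65 in pBAT and 0.59 in pWAT cells, and the day 4 difference 1.28 in B9, -0.30 in pBAT and 1.21 in pWAT cells. For Cyp2j6 at day 2 it was -0.086 in B9 (not called) and 0.45 in pWAT cells, and for Cyp2j9 at day 2 it was -0.34 in pBAT (not called) and 0.50 in pWAT cells. Of these calls, that of Cyp4v3 at day 4 in pBAT cells (adjusted p = 0.0479) was lost with the replicate block (-0.24, adjusted p = 0.169), with no filter (adjusted p = 0.0591) and without any 1 of the 6 libraries compared (adjusted p = 0.0576 to 0.140). That of Cyp2j9 in pWAT cells (adjusted p = 0.0343) was lost with the replicate block, quantile normalization, the compared groups alone, and without day 0 library 1 or day 2 library 2 or 3 (adjusted p = 0.0549 to 0.184).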

How the results depend on the processing

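Under the alternatives no P450 gene reversed a called direction; of the values of single genes, 116 lost their call, 35 gained one and 4494 kept their side of the threshold. The number of genes called stayed within 1.5 times its value except in 2 cases: without Vehicle 4, HA against Vehicle gave 5, and without WT 5, BAKO against WT gave 1. With single libraries left out, calls ranged from 12 to 14 (day 2), 15 to 16 (day 4) and 18 to 18 (day 6) in B9 cells, 10 to 11, 15 to 16 and 14 to 16 in pBAT cells, and 12 to 14, 13 to 15 and 15 to 17 in pWAT cells. For SA against Vehicle they ranged from 10 to 12, for HA against Vehicle from 2 to 5 and for HASA against SA from 10 to 12. For HASA against Vehicle they ranged from 13 to 14, for HASA against HA from 12 to 15, for the interaction from 3 to 4 and for BAKO against WT from 0 to 1. The counts with all libraries, 17 at day 4 in pWAT cells and 14 for HASA against SA, lay above their ranges. Leaving out any 1 compared library thus lost calls in both. The replicate block gave 13, 16 and 18 calls at days 2, 4 and 6 in B9 cells, 10, 15 and 14 in pBAT cells, 13, 16 and 16 in pWAT cells, 10 for SA, 2 for HA, 12 for HASA against SA and 0 for BAKO against WT. Deviations of libraries with the same number had correlations of -0.09 to 0.05 in B9, -0.09 to 0.07 in pBAT and -0.03 to 0.14 in pWAT cells. They were -0.18 to 0.21 in experiment 2 and -0.02 to 0.48 in brown fat. In brown fat the median was 0.32 for the 3 pairs with the same number and -0.11 for pairs with different numbers, which ran from -0.51 to 0.58. The numbers were treated as names, a choice that so few pairs cannot decide in brown fat. Quantile normalization moved the median of all genes by more than 0.1 at day 6 in B9 cells (to -0.09) and at days 4 and 6 in pWAT cells (to -0.10 and -0.12).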
